A study of Mus musculus with 9 samples.

Results

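The collagen genes were taken as the protein-coding genes whose symbol reads Col, a number, the letter a and a number, which gave 44 of the 54532 genes counted. RNA-seq had been run on sublingual salivary glands, the mucous glands under the tongue, of wild-type (WT) mice, in 9 libraries. The 3 control libraries came from glands given no radiation, 3 libraries from glands taken 7 days after 10 Gy of radiation and 3 from glands taken 14 days after the same dose. RNA was isolated from tissue sections, so each library mixes acini, ducts, vessels, nerves and connective tissue, and fewer cells of a type cannot be told apart from less RNA per cell. Whether the 3 libraries of a group were separate animals is not stated in the labels. The p-values therefore describe the variation among these libraries, some of which may be technical.

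Collagens are secreted or membrane proteins in which chains wind into a triple helix. Fibrillar collagens such as types I, III and V build the fibres of connective tissue, type IV forms the sheet of basement membranes under epithelia and around vessels, and types VII and XVII anchor epithelial cells to that sheet. The chains are modified in the endoplasmic reticulum, trimmed outside the cell and crosslinked, and laminins, nidogens, perlecan and agrin join type IV in the basement membrane.

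The deposited counts summed to between 15962399 and 19441239 per library, and 3 counts were worth 0.159 to 0.202 CPM (counts scaled to a common library total, here by edgeR's TMM factors). Of the 44 collagens, 34 passed the filter on low counts and were tested among 15348 genes. On principal components of log2(CPM + 1), the first (39.4% of the variance) placed the day 7 libraries from 23.7 to 33.1 and the controls from −34.9 to −16.5. Control library 3 lay at 25.6 on the third component, where the other libraries lay from −17.7 to 7.14. Counts that changed without that library are given beside the result. The deposited files pair counts with gene identifiers only, and 54409 identifiers matched a symbol.

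Levels per kilobase of the longest coding transcript spanned a wide range within the family. Col20a1, a fibril-associated collagen, was the highest in controls at 14.3 ± 0.798 CPM per kb (mean ± SD, n = 3). It was followed by Col3a1, the chain of type III fibres, at 13.5 ± 2.08 CPM per kb, and by Col4a1, the alpha 1 chain of type IV, at 12.45 ± 0.651 CPM per kb. Col1a2, the alpha 2 chain of type I, stood at 11.2 ± 1.13 CPM per kb and Col4a2 at 8.99 ± 0.0571 CPM per kb. The first 3 of these levels differed by less than the larger SD of each neighbouring pair. Next came Col6a1 (8.15 ± 0.523 CPM per kb), Col15a1 (7.47 ± 0.248 CPM per kb) and Col1a1 (7.47 ± 0.486 CPM per kb), the last pair with nearly equal means. At day 7 Col4a1 had the highest mean, 20.3 ± 1.09 CPM per kb, ahead of Col3a1 at 18.9 ± 2.96 CPM per kb, a difference smaller than the SD of Col3a1. At the low end of the tested genes, Col11a1 stood at 0.0718 ± 0.048 CPM per kb in controls. The order depends on the length used. Per kilobase of all exons, control means were 13.95 CPM for Col20a1, 11.04 for Col4a1, 8.76 for Col4a2 and 7.65 for Col3a1. On that scale Col1a2 stood at 4.81 CPM, below Col6a1 at 7.63. Exons of Col20a1 share 79 bases with another gene on its own strand.

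**Figure D1:**
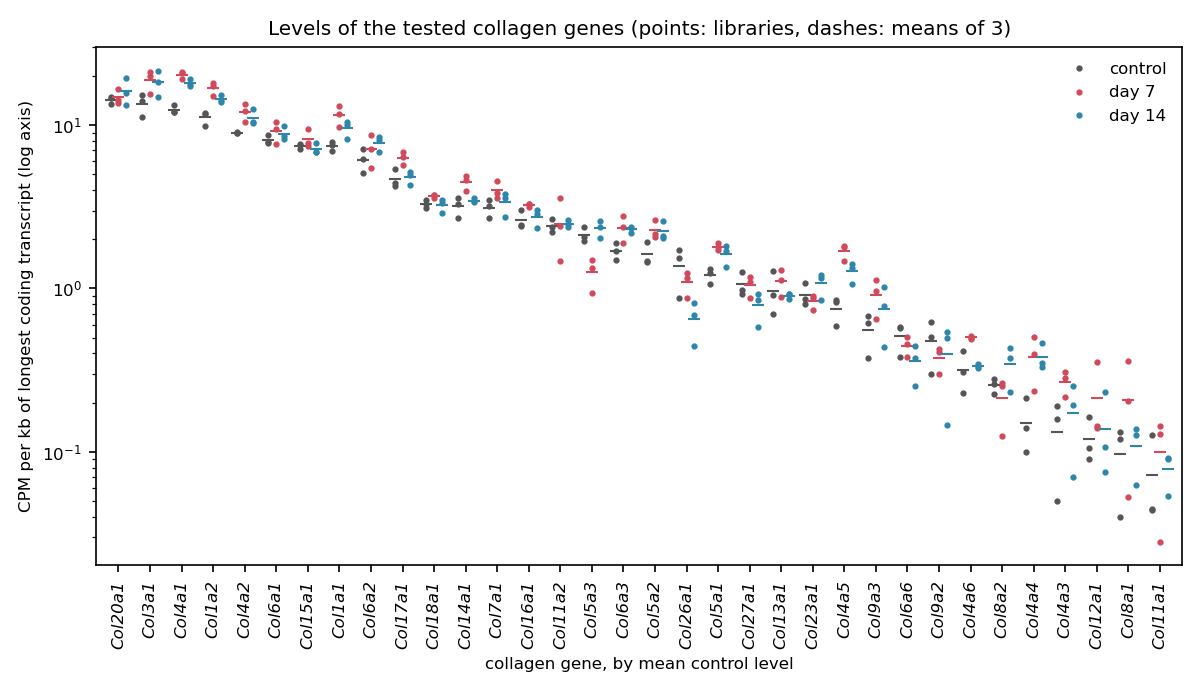
Level of each of the 34 tested collagen genes in CPM per kilobase of the longest coding transcript (log axis), genes ordered by the control mean. Points are libraries, dashes are means of 3, grey is control, red day 7 and blue day 14. In 17 genes, among them all 6 type IV genes, all 3 day 7 points are above the control points, and Col5a3 has them below. Such separation was not counted over all tested genes.

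Fibrillar collagens held the largest part of the collagen counts in controls, 33.4 ± 0.411%, and type IV collagens held 21.2 ± 1.08%. At day 7 these parts were 34.9 ± 1.94% and 24.9 ± 2.36%, and at day 14 they were 35.0 ± 2.84% and 24.2 ± 0.579%. The parts of the fibril-associated collagens were 15.7 ± 0.400% in controls, 13.6 ± 0.670% at day 7 and 14.3 ± 1.74% at day 14. The epithelial pair Col7a1 and Col17a1 held 7.78 ± 0.615%, 7.74 ± 0.747% and 6.78 ± 0.826% in the same order. As a share of all counts, the whole family stood at 0.0653%, 0.0648% and 0.0666% in the controls, at 0.1025%, 0.0958% and 0.1002% at day 7, and at 0.0939%, 0.0816% and 0.0836% at day 14. Every irradiated library was above every control, and the day 7 libraries were above the day 14 libraries. The mean share at day 7 was 1.52 times the control mean for all collagens, 1.585 times for fibrillar and 1.78 times for type IV collagens. Without the 20 most abundant genes in the total, these were 1.38, 1.44 and 1.62 times.

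At day 7, 12 of the 34 tested collagens were higher than in controls and 1, Col5a3, was lower, at an adjusted p under 0.05. Over all tested genes 15.8% were higher and 14.8% lower. DESeq2 made the same 13 calls, where it called 16.1% higher and 16.2% lower of the 15337 genes to which it gave an adjusted p. Limma-voom added Col7a1, where it called 17.7% of all tested genes higher and 16% lower. The median log2 change of the tested collagens was 0.43, beside 0.02 over all tested genes. Of the 34 changes 27 were positive, beside 7937 of 15348 over all tested genes. In 17 collagens all 3 day 7 libraries lay above all 3 controls, and in 1 they lay below. Such separation was not counted over all tested genes, so these counts stand without a background share. The higher genes were 5 of 9 tested fibrillar collagens (Col1a1, Col1a2, Col3a1, Col5a1 and Col5a2), 4 of 6 type IV collagens (Col4a1, Col4a2, Col4a4 and Col4a5), and Col17a1, Col6a3 and Col14a1. Leaving out day 7 library 1 left 7 of the 12 calls and leaving out control library 2 left 8, while leaving out control library 3 left 11. Col1a1, Col1a2, Col4a1, Col4a5 and Col5a1, and Col5a3 in the other direction, kept their calls in each of the 9 omissions.

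The 6 type IV chains are encoded by 3 pairs of genes that lie head to head on GRCm38. Col4a1 (chr8:11198423-11312826, minus strand) and Col4a2 (chr8:11312805-11449287, plus strand) overlap by 22 bases at their starts. The starts of Col4a4 (chr1:82448423-82586849, minus) and Col4a3 (chr1:82586921-82722059, plus) are 72 bases apart, and those of Col4a6 (chrX:141165403-141474076, minus) and Col4a5 (chrX:141475385-141689234, plus) are 1309 bases apart. In each of the 6 genes all 3 day 7 libraries were above all 3 controls, a separation not counted over all tested genes. The median log2 change of the 6 was 0.86.

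Col4a1 and Col4a2 make the common alpha 1 and alpha 2 network found in nearly all basement membranes. Col4a1 stood at 79.8, 87.4 and 80.0 CPM in the controls, 126, 137 and 139 CPM at day 7, and 127, 115 and 118 CPM at day 14. The irradiated libraries did not overlap the controls. Col4a1 rose 1.63-fold at day 7 (log2 change 0.70, SE 0.09, adjusted p = 3.306e-05). Col4a2 stood at 57.8, 58.4 and 57.8 CPM in the controls, 67.2, 86.9 and 78.3 CPM at day 7, and 80.8, 67.7 and 66.4 CPM at day 14. Its controls were nearly equal and all below the irradiated libraries. Col4a2 rose 1.34-fold at day 7 (log2 change 0.42, SE 0.11, adjusted p = 0.00719), and this call was lost without day 7 library 2, at an adjusted p of 0.058.

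Col4a3, Col4a4 and Col4a5 form the alpha 3, 4 and 5 network known from the kidney glomerulus, and Col4a5 and Col4a6 take part in an alpha 5 and 6 network of some epithelial basement membranes. Col4a5 stood at 3.84, 5.53 and 5.37 CPM in the controls, 9.61, 11.9 and 11.8 CPM at day 7, and 8.71, 9.24 and 6.99 CPM at day 14. Its irradiated libraries were all above the controls. It rose 2.26-fold at day 7 (log2 change 1.18, SE 0.20, adjusted p = 0.000329). Col4a4 stood at 1.40, 1.01 and 2.15 CPM in the controls, 4.02, 5.11 and 2.36 CPM at day 7, and 4.67, 3.35 and 3.52 CPM at day 14. Its lowest day 7 library was close to its highest control. Col4a4 rose 2.49-fold at day 7 (log2 change 1.32, SE 0.35, adjusted p = 0.00842), and without day 7 library 2 the adjusted p was 0.0585.

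The other two chains did not pass the test at day 7. Col4a6 stood at 1.52, 2.77 and 2.04 CPM in the controls, 3.31, 3.41 and 3.28 CPM at day 7, and 2.16, 2.23 and 2.28 CPM at day 14. Its log2 change at day 7 was 0.66 (SE 0.31, adjusted p = 0.114). Col4a3 stood at 0.427, 1.62 and 1.36 CPM in the controls, 1.85, 2.64 and 2.42 CPM at day 7, and 2.16, 1.65 and 0.596 CPM at day 14, with a log2 change at day 7 of 1.02 (SE 0.50, adjusted p = 0.131). The day 7 libraries of both were above the controls, while the day 14 libraries overlapped them. Exons of Col4a3 overlap 563 bases of an antisense gene, C430014B12Rik.

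The 250 bases before the RefSeq start sites of the type IV genes that rose are shown because these genes moved together, with those of Col1a2, a fibrillar gene that rose, and Col5a3, the collagen that fell. They come from RefSeq on GRCm38.p6, which held promoters for 35 of the 44 collagens (38 entries). The windows are chr8:11312827-11313076 (minus strand) for Col4a1, chr8:11312555-11312804 (plus) for Col4a2, chr1:82586850-82587099 (minus) for Col4a4, chrX:141475169-141475418 (plus) for Col4a5, chr6:4505368-4505617 (plus) for Col1a2 and chr9:20815068-20815317 (minus) for Col5a3. Capitals mark matches, on either strand, to the letters CCAAT. They also mark the GC box, searched as the letters GGGCGG on either strand. Matches of the 2 motifs share no bases here. Each sequence runs 5′ to 3′ on the gene's strand and ends at the base before the start site.
Col4a1: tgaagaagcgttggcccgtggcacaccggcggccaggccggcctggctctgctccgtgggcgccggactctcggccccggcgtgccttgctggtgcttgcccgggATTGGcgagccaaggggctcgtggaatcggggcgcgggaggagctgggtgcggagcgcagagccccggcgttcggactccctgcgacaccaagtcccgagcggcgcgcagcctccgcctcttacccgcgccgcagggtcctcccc
Col4a2: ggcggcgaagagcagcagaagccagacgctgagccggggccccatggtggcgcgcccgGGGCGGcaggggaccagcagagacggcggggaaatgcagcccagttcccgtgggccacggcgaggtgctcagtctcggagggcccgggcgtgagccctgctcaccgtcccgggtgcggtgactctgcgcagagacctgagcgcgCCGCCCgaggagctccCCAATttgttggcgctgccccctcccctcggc
Col4a4: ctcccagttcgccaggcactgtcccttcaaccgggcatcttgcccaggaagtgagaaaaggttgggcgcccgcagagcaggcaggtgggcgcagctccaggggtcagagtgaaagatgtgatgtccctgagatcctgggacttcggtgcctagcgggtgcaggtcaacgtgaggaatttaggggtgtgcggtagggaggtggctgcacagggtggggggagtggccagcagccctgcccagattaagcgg
Col4a5: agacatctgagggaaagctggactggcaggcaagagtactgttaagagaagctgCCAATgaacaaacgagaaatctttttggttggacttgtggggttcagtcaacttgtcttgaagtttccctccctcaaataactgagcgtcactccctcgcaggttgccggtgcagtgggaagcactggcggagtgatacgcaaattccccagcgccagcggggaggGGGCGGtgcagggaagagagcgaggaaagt
Col1a2: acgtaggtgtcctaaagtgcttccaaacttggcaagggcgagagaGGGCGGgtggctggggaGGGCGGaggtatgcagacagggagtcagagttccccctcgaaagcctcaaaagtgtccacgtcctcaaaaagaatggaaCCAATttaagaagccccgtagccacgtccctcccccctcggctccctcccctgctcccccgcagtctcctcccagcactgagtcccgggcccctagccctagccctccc
Col5a3: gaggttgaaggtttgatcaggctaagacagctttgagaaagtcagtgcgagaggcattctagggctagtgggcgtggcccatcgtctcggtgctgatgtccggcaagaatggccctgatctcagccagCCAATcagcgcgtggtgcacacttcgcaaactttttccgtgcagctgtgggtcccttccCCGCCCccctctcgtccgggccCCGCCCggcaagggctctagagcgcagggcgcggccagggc

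The CCAAT match began 145 bases before the start of Col4a1, 32 before that of Col4a2, 196 before that of Col4a5, 109 before that of Col1a2 and 122 before that of Col5a3. The Col4a4 window held neither motif. The Col4a2, Col1a2 and Col5a3 windows held 2 GC boxes each, the Col4a5 window 1 and the Col4a1 window 0. Of the 38 collagen entries, 13 (34.2%) held CCAAT and 22 (57.9%) held a GC box, beside 33.9% and 32.7% of all 32851 promoters in windows of the same length. Both motifs were found in front of genes that rose and in front of the gene that fell. A match is a run of letters and not a measured binding site.

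Among the fibrillar collagens, Col1a1 and Col1a2 encode the chains of type I collagen, the main fibre of connective tissue. Col1a1 (chr11:94936224-94953042, plus strand) stood at 46.8, 44.9 and 41.1 CPM in the controls, 77.2, 69.8 and 57.8 CPM at day 7, and 59.7, 61.9 and 49.0 CPM at day 14. All irradiated libraries were above the controls. Col1a1 rose 1.54-fold at day 7 (log2 change 0.62, SE 0.12, adjusted p = 0.000814). Col1a2 (chr6:4504814-4541544, plus) stood at 63.0, 52.8 and 63.4 CPM in the controls, 96.3, 80.7 and 92.5 CPM at day 7, and 81.2, 76.2 and 74.4 CPM at day 14. The groups were ordered control, day 14 and day 7 by their means, with all irradiated libraries above the controls. Col1a2 rose 1.504-fold at day 7 (log2 change 0.59, SE 0.10, adjusted p = 0.000367).

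Col3a1, the chain of the thin reticular fibres around vessels and glands, stood at 62.5, 77.7 and 85.2 CPM in the controls, 111, 86.6 and 118 CPM at day 7, and 103, 120.1 and 82.6 CPM at day 14. Its day 7 library 2 was only just above the highest control, and day 14 library 3 was below it. Col3a1 rose 1.40-fold at day 7 (log2 change 0.48, SE 0.15, adjusted p = 0.0238). It did not pass when control library 1 or 2, or day 7 library 1 or 3, was omitted (adjusted p up to 0.109). Exons of Col3a1 share 141 bases with Gm47302 on the same strand.

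Type V collagen co-assembles with type I and sets fibril diameter. Col5a1 stood at 11.04, 10.4 and 8.99 CPM in the controls, 15.97, 15.1 and 14.5 CPM at day 7, and 14.3, 15.3 and 11.4 CPM at day 14. It rose 1.496-fold at day 7 (log2 change 0.58, SE 0.16, adjusted p = 0.00998). Exons of Col5a1 overlap 212 bases of antisense genes. Col5a2 stood at 12.8, 9.58 and 9.73 CPM in the controls, 17.5, 13.7 and 14.3 CPM at day 7, and 13.5, 17.1 and 13.9 CPM at day 14. It rose 1.42-fold at day 7 (log2 change 0.50, SE 0.17, adjusted p = 0.03), and it did not pass when control library 2 or 3, or day 7 library 1, was omitted (adjusted p up to 0.158). In both genes all irradiated libraries were above the controls.

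Col5a3, the third chain of type V, moved the other way. It stood at 12.7, 14.6 and 11.9 CPM in the controls, 5.76, 8.13 and 9.13 CPM at day 7, and 15.9, 12.5 and 14.6 CPM at day 14. The day 7 libraries were below every control and every day 14 library. Col5a3 (chr9:20770050-20815067, minus strand) fell by 0.76 on the log2 scale at day 7, to 0.589 of the control level (SE 0.18, adjusted p = 0.00416). The remaining tested fibrillar collagens did not pass. Col11a2 had log2 change 0.05 (SE 0.23), with day 7 libraries spread over 8.96, 14.6 and 21.8 CPM around controls of 13.4 to 16.1 CPM. Col27a1 had log2 change −0.01 (SE 0.22) and the sparsely counted Col11a1 0.46 (SE 0.68).

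**Figure D2:**
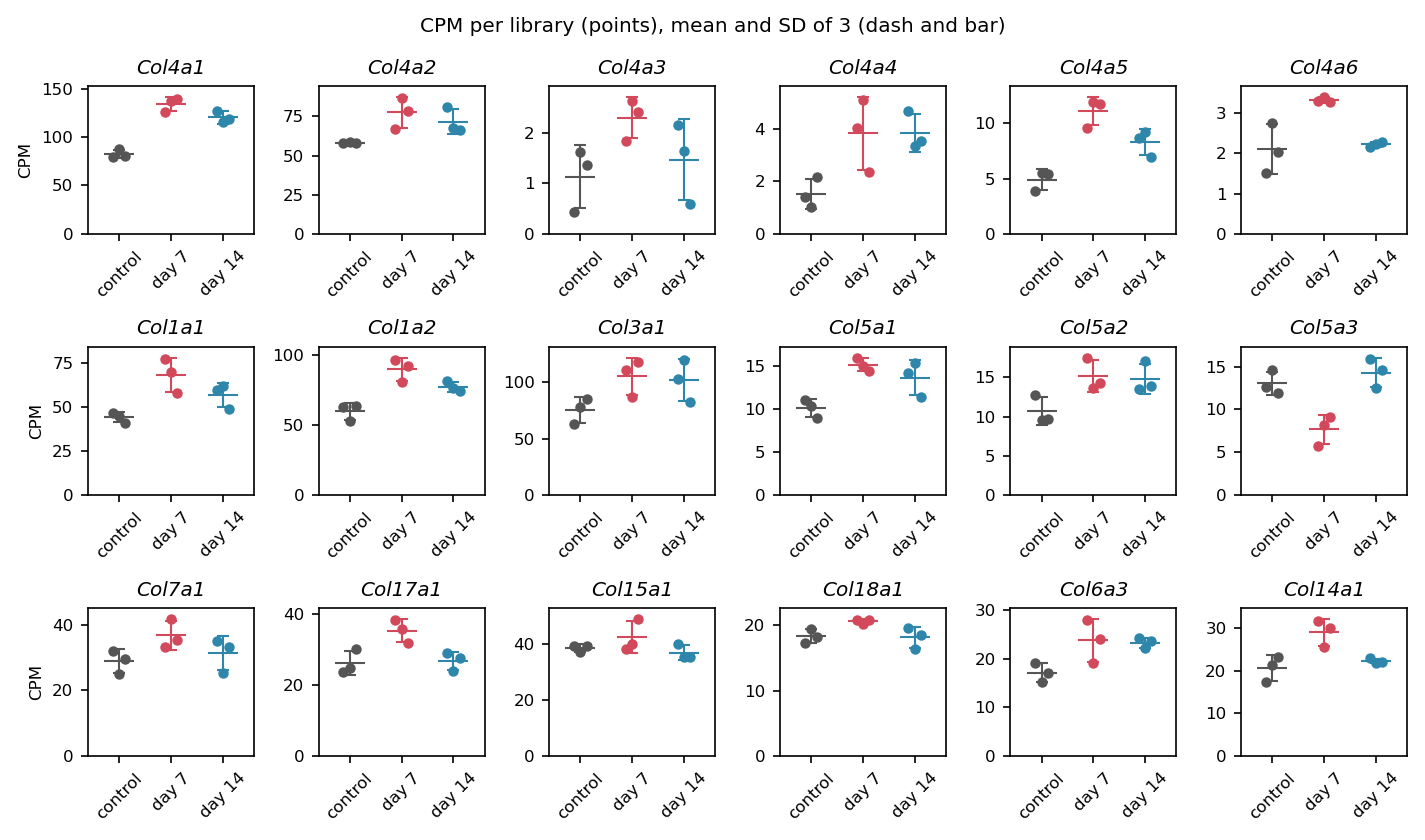
CPM in each library for 18 collagens, 1 panel a gene, with the y axis from 0. Points are libraries, the dash and bar are the mean and SD of 3. The type IV genes in the top row have day 7 points above the controls, Col5a3 at the right of the middle row has day 7 points below both other groups, and Col17a1 in the bottom row has day 7 points above both.

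Col17a1 and Col7a1 are the epithelial junction collagens. Col17a1, a membrane collagen of hemidesmosomes in basal epithelial cells, stood at 23.5, 24.8 and 29.9 CPM in the controls, 38.2, 35.8 and 31.8 CPM at day 7, and 28.9, 23.9 and 27.6 CPM at day 14. The day 7 libraries were above all others. Col17a1 rose 1.35-fold at day 7 (log2 change 0.43, SE 0.13, adjusted p = 0.0147), and this call depended on control libraries 1 and 2 and day 7 library 1, since leaving out any of them raised the adjusted p to as much as 0.0747. Col7a1, the anchoring fibril collagen, stood at 32.1, 25.0 and 29.8 CPM in the controls, 33.2, 41.9 and 35.5 CPM at day 7, and 35.2, 25.4 and 33.3 CPM at day 14. Its day 7 libraries were above the controls, by a narrow gap. Its log2 change at day 7 was 0.35 (SE 0.14, adjusted p = 0.064), not past the threshold in edgeR or DESeq2. It passed in limma-voom, and in edgeR with no filter on low counts or with GC content alone taken out.

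Col15a1 and Col18a1 are multiplexins, basement membrane proteoglycan collagens, of which Col18a1 is the source of endostatin. Neither passed the test. Col15a1 stood at 37.2 to 39.5 CPM in the controls, 38.5 to 49.1 CPM at day 7 and 35.3 to 40.1 CPM at day 14, with a log2 change at day 7 of 0.14 (SE 0.11, adjusted p = 0.381). Col18a1 stood at 17.3 to 19.5 CPM, 20.2 to 20.9 CPM and 16.3 to 19.6 CPM, with a log2 change of 0.17 (SE 0.13, adjusted p = 0.354).

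Type VI collagen forms beaded filaments around cells. Of its 4 tested chains only Col6a3 passed, from 19.1, 15.2 and 17.0 CPM in the controls to 28.0, 19.2 and 24.1 CPM at day 7, and 24.2, 22.2 and 23.6 CPM at day 14. The lowest day 7 library was only just above the highest control. Col6a3 rose 1.39-fold (log2 change 0.47, SE 0.15, adjusted p = 0.0195), which no longer passed when control library 2 or day 7 library 1 or 3 was omitted (adjusted p up to 0.134). Its partner chains had log2 changes at day 7 of 0.18 (SE 0.12) for Col6a1 and 0.22 (SE 0.16) for Col6a2, with overlapping libraries, and Col6a6 had −0.18 (SE 0.28).

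Fibril-associated collagens sit on the surface of fibres. Of 6 tested, only Col14a1 passed, from 17.4, 21.3 and 23.2 CPM in the controls to 31.6, 25.6 and 30.0 CPM at day 7, with 23.0, 21.9 and 22.0 CPM at day 14. The day 7 libraries were above all others. Col14a1 rose 1.41-fold (log2 change 0.49, SE 0.13, adjusted p = 0.00939), and without control library 1 or day 7 library 1 the adjusted p was up to 0.0556. Col20a1, the highest collagen per kilobase in controls, had a log2 change of 0.05 (SE 0.12). Col16a1 had 0.31 (SE 0.15, adjusted p = 0.133), Col12a1 0.82 (SE 0.48), Col9a3 0.71 (SE 0.38) and Col9a2 −0.33 (SE 0.50). The network collagens Col8a1 and Col8a2, known from vessel walls and the cornea, had changes of 1.05 (SE 0.68) and −0.26 (SE 0.47). The membrane collagens Col13a1 and Col23a1 had changes of 0.20 (SE 0.30) and −0.12 (SE 0.23).

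Col26a1 stood at 2.44, 4.25 and 4.81 CPM in the controls, 2.44, 3.24 and 3.44 CPM at day 7, and 1.23, 1.91 and 2.28 CPM at day 14. The day 14 libraries were below all others. Its log2 change at day 14 was −1.08 (SE 0.34, adjusted p = 0.0837), the lowest of the tested collagens at that time, and DESeq2 called it lower.

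The day 14 comparison shares its controls with the day 7 comparison. At day 14, 1 of the 34 collagens was higher than in controls, Col4a1, where 1.13% of all tested genes were higher. Col4a1 rose 1.46-fold (log2 change 0.54, SE 0.09, adjusted p = 0.00946), and without control library 1 its adjusted p was 0.058. None of the 34 was lower by edgeR, where 0.632% of all genes were lower. DESeq2 called 4 higher (Col1a2, Col4a1, Col4a4 and Col4a5) and 1 lower (Col26a1). These stand beside 5.02% and 3.83% of the 11768 genes to which DESeq2 gave an adjusted p. Limma-voom called 2 higher and 0 lower, beside 2.64% and 1.47% of all tested genes. By edgeR 12 collagens had an unadjusted p under 0.05 in either direction. Without control library 3, edgeR called 4 higher, Col1a2, Col4a1, Col4a4 and Col4a5. Neither unadjusted p-values nor calls with a library left out were counted over all tested genes, so both counts stand without a background share. The median log2 change was 0.16, beside 0.01 over all genes. In 9 collagens all day 14 libraries were above the controls, which was not counted over all genes. A pair of type IV chains stood close to the threshold, Col4a4 with a log2 change of 1.32 (SE 0.35, adjusted p = 0.0583) and Col4a5 with 0.76 (SE 0.20, adjusted p = 0.0588). Col1a2 had 0.37 (SE 0.10, adjusted p = 0.0628) and Col1a1 0.36 (SE 0.12, adjusted p = 0.0993).

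Set against day 7 directly, the day 14 glands had 1 collagen higher, Col5a3, where 3.72% of all tested genes were higher. Col5a3 rose 1.86-fold (log2 change 0.90, SE 0.18, adjusted p = 0.00679), and at day 14 its change from control was 0.13 (SE 0.18, adjusted p = 0.708). None was lower by edgeR, where 2.87% of all genes were lower. DESeq2 and limma-voom each called Col5a3 higher, beside 5.58% and 5.42% of genes, and 1 lower, Col17a1, beside 4.72% and 4.61%. The DESeq2 shares are of the 13849 genes to which it gave an adjusted p, and the limma-voom shares of all 15348. In either direction 7 collagens had an unadjusted p under 0.05 by edgeR. Without control library 1, edgeR called 2 lower (Col14a1 and Col17a1), and without control library 3 it called 1 lower (Col17a1). Again these counts, and that by unadjusted p, were not made over all tested genes. Col17a1 had a log2 change of −0.40 (SE 0.13, adjusted p = 0.0662) and Col14a1 −0.38 (SE 0.13, adjusted p = 0.0891), and in both all day 14 libraries were below all day 7 libraries. Col4a1 had −0.16 (SE 0.09), Col1a1 −0.26 (SE 0.12), Col1a2 −0.22 (SE 0.10), Col3a1 −0.05 (SE 0.15) and Col4a4 0.01 (SE 0.33). The median over the collagens was −0.21, beside 0.00 over all genes, and 27 of 34 values were negative, beside 7645 of 15348.

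Gene length moved with these changes, and taking out length or GC content altered which collagens passed. Across 15332 tested genes with a gene model, which are not independent replicates, the log2 change at day 7 had a Spearman correlation of 0.42 with exonic length. Its median was −0.37 in the shortest decile and 0.38 in the longest, of genes over 9554 bases. The tested collagens had a median exonic length of 7242 bases, beside 4113 over all tested genes, and a median GC content of 57.0%, beside 50.1%. With the trend on length and GC taken out of every library, the correlation was 0.04 and the median change of the collagens 0.22, and 7 collagens remained higher at day 7 (Col1a1, Col5a1, Col17a1, Col4a1, Col4a2, Col4a4 and Col4a5), with Col5a3 lower. Over all tested genes 7.29% were higher and 14.1% lower after this correction. Col1a2, Col3a1, Col5a2, Col6a3 and Col14a1 were no longer called, at log2 changes of 0.14 to 0.29. With length alone taken out, 4 collagens were higher, Col1a1, Col4a1, Col4a4 and Col4a5, beside 7.47% of all genes. With GC content alone taken out, 12 were higher, beside 11.9% of all genes, and Col3a1 and Col5a2 were not among them.

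The 5 collagens whose call was lost had a median exonic length of 9816 bases and a median GC content of 46.8%, beside 6764 bases and 57.4% for the 8 that were called before and after (Col5a3 included). The correction is computed from length and GC content, so which calls it removes depends on these same values. None of the 5 was called with length alone taken out, while Col1a2, Col6a3 and Col14a1 were called with GC content alone taken out. Col1a1 and Col1a2, partners in the same trimer, have exonic lengths of 6563 and 12426 bases and GC contents of 57.8% and 46.8%. Exonic length covers the exons of all transcripts, and their longest coding transcripts have 5930 and 5348 bases. The changes of Col1a1 and Col1a2 at day 7 were 0.62 and 0.59 as counted. After the correction they were 0.55 (adjusted p = 0.00121) and 0.21 (adjusted p = 0.148). With the longest coding transcript as the length, Col1a1 was still called and Col1a2 was not. The corrected change of Col4a1 was 0.60 at day 7 and 0.53 at day 14 (adjusted p = 0.00894, where 0.404% of all genes were higher), and that of Col5a3 was −0.84 at day 7 (adjusted p = 0.0016). Whether the trend comes from the glands or from the RNA and libraries was not tested.

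**Figure D3:**
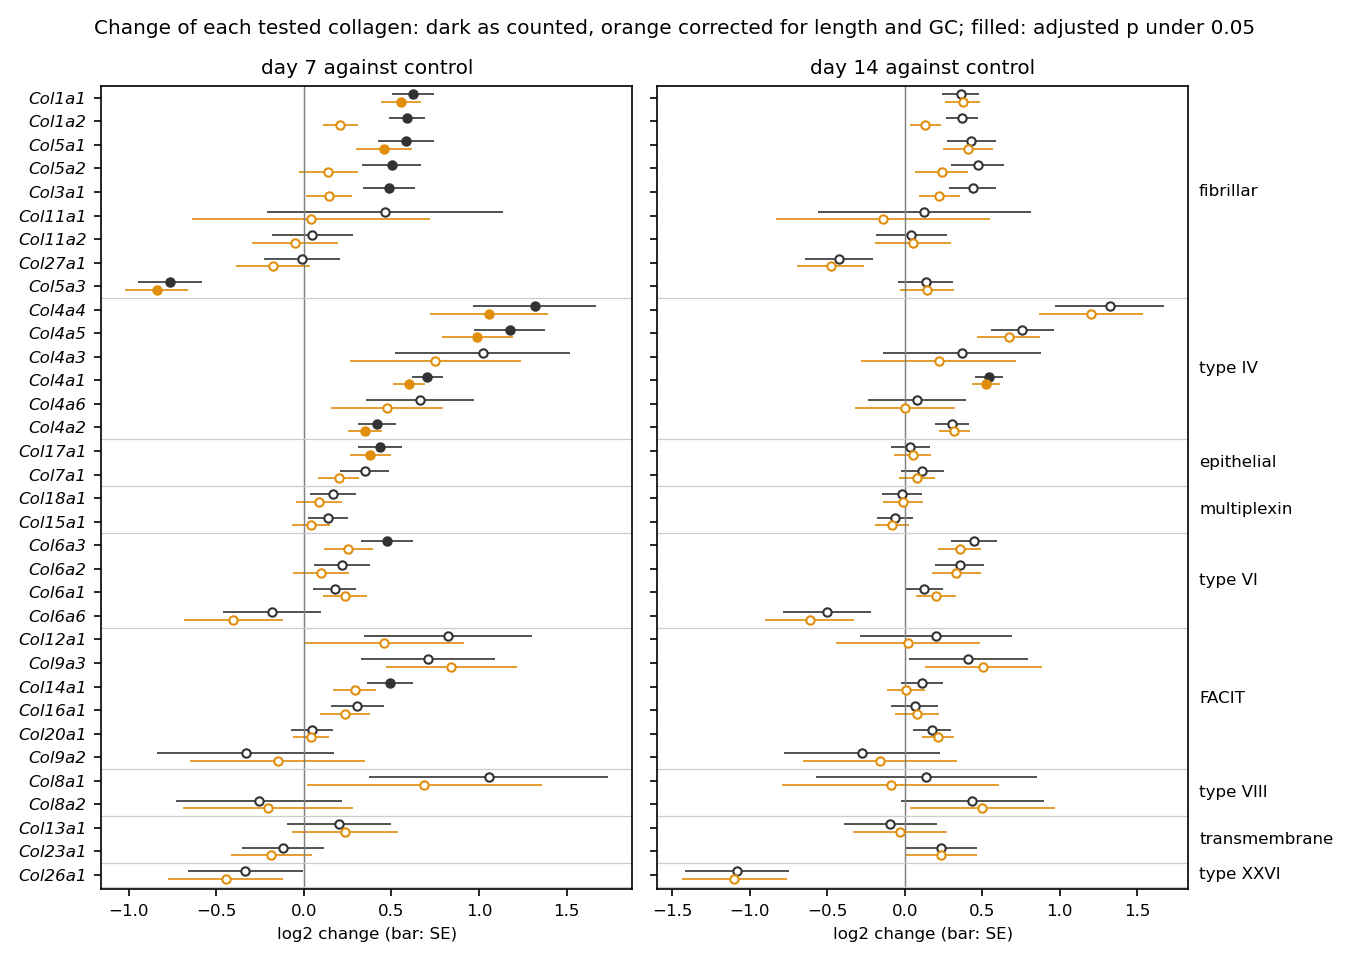
Log2 change of the 34 tested collagens at day 7 (left) and day 14 (right) against control, grouped by class, with SE bars. Dark points are as counted, orange points are corrected for length and GC, and filled points have an adjusted p under 0.05. At day 7, 13 dark and 8 orange points are filled, and at day 14 only Col4a1 is filled in both.

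Chains of the same collagen type, and Col3a1 with Col1a1, were compared as ratios of CPM per kb in each library. Col1a1 over Col1a2 was 0.670 in controls, 0.682 at day 7 and 0.660 at day 14 (geometric means, n = 3; exact permutation test over 3 groups, p = 0.939). Of 7 chain ratios, none passed after adjustment over the 8 ratios computed, the eighth being a sum over classes. Col4a1 over Col4a2 was 1.38 in controls, 1.70 at day 7 and 1.64 at day 14 (exact permutation p = 0.0286, adjusted p = 0.114). The irradiated libraries of this ratio were all above the controls. Col4a5 over Col4a6 was 2.41, 3.37 and 3.78 in the same order (exact permutation p = 0.0179, adjusted p = 0.114), again with no overlap with the controls. Col6a3 over Col6a1 was 0.207, 0.254 and 0.261 (exact permutation p = 0.0821). Col5a1 over Col5a2 was 0.751, 0.792 and 0.725, and Col6a1 over Col6a2 was 1.34, 1.31 and 1.14. Summed fibrillar over summed type IV was 1.78, 1.60 and 1.65.

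**Figure D4:**
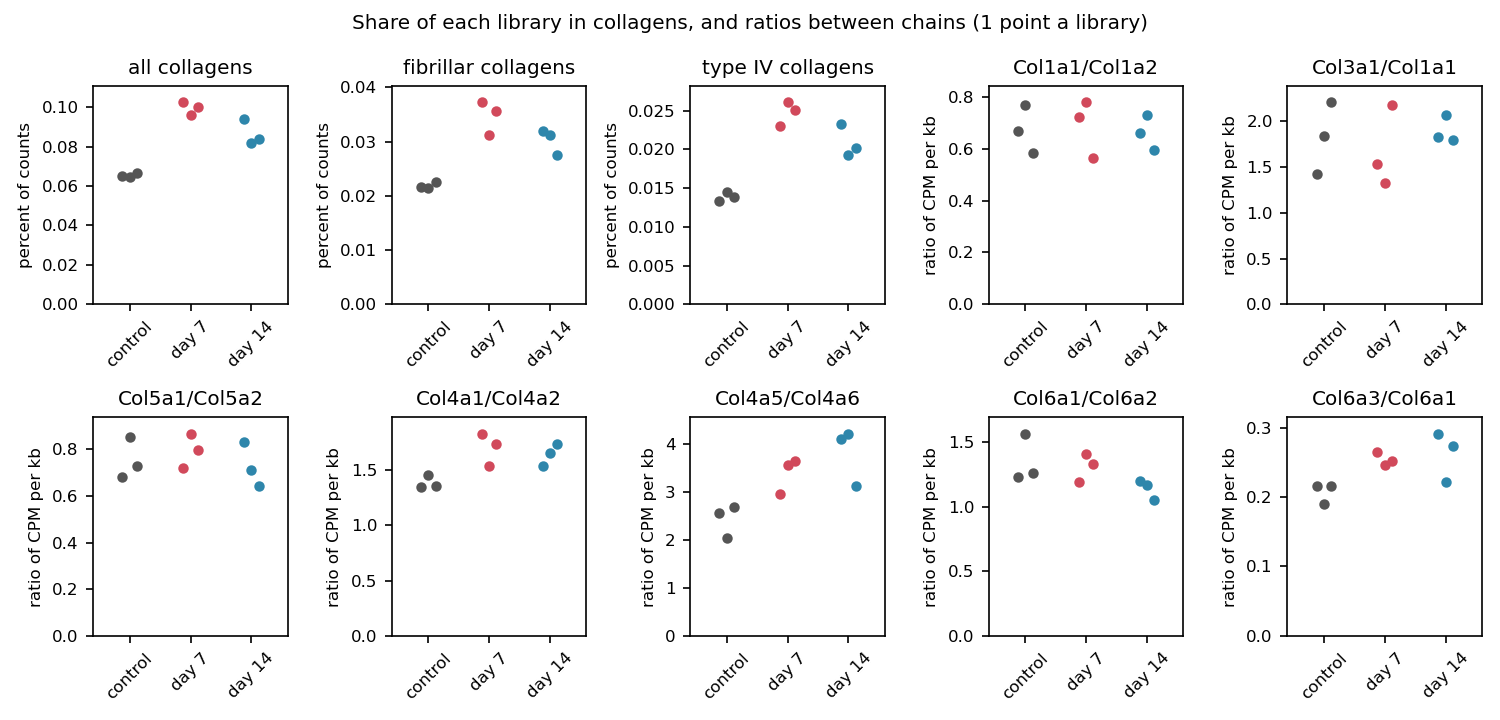
Percent of all counts in all, fibrillar and type IV collagens, and ratios of CPM per kb between chains, with 1 point a library, 3 a group, and y axes from 0. The 3 shares are above the controls in every irradiated library, Col1a1 over Col1a2 overlaps in all groups, and Col4a1 over Col4a2 is above the controls in every irradiated library.

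Genes that act with collagens were counted by role. Of 10 other basement membrane genes, 8 were higher at day 7 and 0 lower by edgeR, beside 15.8% and 14.8% of all tested genes. All 10 had positive changes with an unadjusted p under 0.05, which was not counted over all tested genes. DESeq2 called 8 higher, beside 16.1% of the genes to which it gave an adjusted p. Lama5, a laminin alpha chain, rose from 124 ± 5.42 to 226 ± 19.2 CPM (log2 change 0.87, adjusted p = 6.945e-06) and stood at 157 ± 8.27 CPM at day 14. Agrn, the proteoglycan agrin, rose from 63.0 ± 6.34 to 115 ± 3.79 CPM (log2 change 0.87, adjusted p = 1.99e-05). Nid2, a nidogen that links laminin to type IV collagen, rose from 8.99 ± 0.905 to 16.5 ± 1.54 CPM (log2 change 0.88, adjusted p = 0.00147). Between day 7 and day 14, 4 of the 10 fell (Lama5, Agrn, Nid2 and Lamb2), beside 2.87% of all genes. After the length and GC correction 6 of the 10 were higher at day 7, beside 7.29% of all genes, and 3 fell between day 7 and day 14 (Lama5, Agrn and Nid2), beside 2.35%.

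Of 8 genes whose proteins join Col17a1 in the hemidesmosome, 6 were higher at day 7 and 1, Cd151, was lower, beside the same 15.8% and 14.8%. Itgb4, the integrin beta 4 chain, rose from 69.2 ± 0.549 to 115 ± 8.89 CPM (log2 change 0.73, adjusted p = 4.114e-05) and stood at 67.9 ± 6.57 CPM at day 14. Lama3 rose from 20.1 ± 2.48 to 33.4 ± 3.13 CPM (adjusted p = 0.00045), Itga6 from 102 ± 15.1 to 154 ± 13.7 CPM (adjusted p = 0.000435) and Dst from 31.3 ± 3.49 to 52.0 ± 10.3 CPM (adjusted p = 0.000629). Between day 7 and day 14, 5 of the 8 fell, beside 2.87% of all genes, Itgb4 by 0.76 on the log2 scale (adjusted p = 0.000135). After the length and GC correction 5 were higher and 1 lower at day 7, beside 7.29% and 14.1% of all genes. Between day 7 and day 14 the corrected fit had 3 that fell (Itgb4, Lama3 and Lamb3), beside 2.35%.

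Of 17 tested enzymes and chaperones that act on procollagen in the endoplasmic reticulum, 1 was higher at day 7 and 5 were lower, beside 15.8% and 14.8% of all genes. Serpinh1, the collagen chaperone HSP47, fell from 50.1 ± 4.72 to 36.9 ± 2.41 CPM (log2 change −0.44, adjusted p = 0.00426) and rose to 48.0 ± 2.46 CPM at day 14 (adjusted p = 0.0374 against day 7). Ppib, a prolyl isomerase, fell from 161 ± 22.6 to 118 ± 10.97 CPM (log2 change −0.45, adjusted p = 0.00416) and P4hb, a subunit of prolyl 4-hydroxylase that also acts as a disulfide isomerase on other secreted proteins, from 1577 ± 103 to 1225 ± 117 CPM (adjusted p = 0.0091). Mia3, which loads collagen into export carriers, rose from 434 ± 31.1 to 558 ± 19.7 CPM (adjusted p = 0.00484). After the correction 0 were higher and 3 were lower, beside 7.29% and 14.1% of all genes. Of those 3, only Ppib was among the 5 lower before. The corrected log2 change was −0.20 for Serpinh1 (adjusted p = 0.213) and −0.21 for P4hb (adjusted p = 0.178).

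In the lists of collagen maturation, breakdown and sensing, as in all tested genes, most members did not pass at day 7, and 15.8% of all genes were higher. Of 11 tested processing and crosslinking genes 1 was higher, the lysyl oxidase Lox, from 49.5 ± 2.58 to 62.4 ± 3.72 CPM (adjusted p = 0.0239), with a corrected change of 0.03. Of 9 degradation genes 2 were higher, the inhibitor Timp3 from 57.5 ± 13.2 to 97.8 ± 17.5 CPM (adjusted p = 0.00183) and the protease Mmp2 from 26.0 ± 6.76 to 34.9 ± 3.89 CPM (adjusted p = 0.0473). Of 8 receptors 1 was higher, Itga1, from 36.0 ± 4.29 to 49.7 ± 11.6 CPM (adjusted p = 0.016), with a corrected change of −0.08. Of 8 fibril regulators such as Dcn, Lum and Sparc, 0 were called and 0 had an unadjusted p under 0.05 by edgeR, and DESeq2 and limma-voom called 0. After the correction Dcn was lower, at a log2 change of −0.43. At day 14 against control edgeR called 0 genes in each of these 7 lists, beside 1.13% of all genes higher and 0.632% lower. DESeq2 called 0 to 3 a list, beside 5.02% higher and 3.83% lower of the genes to which it gave an adjusted p. By edgeR 1 to 5 genes a list had an unadjusted p under 0.05, which was not counted over all tested genes.

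Markers of cell types that the sections could hold were summed in each library. Their edgeR calls at day 7 stand beside 15.8% of all tested genes higher and 14.8% lower. After the length and GC correction these shares were 7.29% and 14.1%. The 8 fibroblast markers summed to 232 to 255 CPM in controls, 201 to 271 CPM at day 7 and 241 to 369 CPM at day 14, with 0 of 7 tested called at day 7 and Tcf21 at 0 in every library. By unadjusted p none of the 7 passed at day 7, DESeq2 called 0 and limma-voom called 1 lower. After the length and GC correction 2 of them, Cd34 and Dcn, were lower at day 7 (adjusted p = 0.027 and 0.0103), and 6 of the 7 changes were negative. The 8 endothelial markers summed to 347 to 387, 425 to 510 and 406 to 446 CPM, most of it Vwf at 310.2 ± 19.4 CPM in controls and 393 ± 43.6 CPM at day 7. Their median log2 change at day 7 was 0.13, with 3 of 8 negative, and 2 were higher (Vwf and Tek) and 0 after the correction. The 8 pericyte and smooth muscle markers summed to 632 to 735, 739 to 888 and 733 to 770 CPM, with 3 higher (Myh11, Cspg4 and Notch3) and Des lower at day 7, of which Myh11 was still called after the correction and the others were not. The 5 proliferation markers were all higher at day 7, at 68.2 to 112 CPM beside 6.10 to 12.1 CPM in controls. All 5 were still called after the correction. Of 5 tested acinar markers 5 were lower, and 4 of them after the correction. The 7 basal and myoepithelial markers summed to 619 to 720 CPM in controls and 587 to 696 CPM at day 7. Acta2 is in both this list and the pericyte and smooth muscle list, so the 2 sums are not separate. Of 6 cartilage markers 5 were under 1 CPM in every library. The 5 adipocyte markers summed to 37.8 to 47.8, 28.9 to 36.0 and 46.9 to 96.2 CPM. Of 3 tested, Lpl was lower at day 7, before and after the correction, and higher at day 14 than at day 7. The 7 Schwann cell markers summed to 186 to 216, 177 to 188 and 187 to 198 CPM. At day 7 Sox10 was lower, before and after the correction, and Cdh19 was higher, but not after it. The 6 skeletal muscle markers summed to 1.77 to 4.87, 2.90 to 4.13 and 2.38 to 2.51 CPM, with 0 of 2 tested called at day 7. The part of these cell types in the collagen changes was not tested.

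The 10 collagens that were not tested were near the limit of detection. Col2a1, the fibrillar collagen of cartilage, and Col19a1 had 0 counts in all 9 libraries, and 3 counts in a library would be worth at most 0.202 CPM. Col9a1 had counts in 1 library and Col6a4 in 3. Col10a1 and Col24a1 were at 0 in 4 libraries each and Col25a1 in 2. Col28a1, Col22a1 and Col6a5 had counts in every library, with control means of 0.417, 0.289 and 0.121 CPM.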

How the data were processed

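Per the submitters' processing notes, the authors used STAR, featureCounts and DESeq2 with the mm10 build. For versions, annotation and strand, nothing is stated (not given in the sources used here). The authors deposited raw counts, whole numbers per gene and library, with no normalisation. Gene identifiers were matched to GENCODE M21 on GRCm38 for symbols, coordinates (counted from 1), exonic length and GC content. Reads of overlapping genes cannot be told apart without strand, and exons of 10 collagens overlap an antisense gene.

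The counts of all 9 libraries were fitted with edgeR 4.0.16 in R 4.3.3 as 3 groups, with TMM scaling, filterByExpr (15348 genes kept) and the two-sided quasi-likelihood F test. P-values were adjusted by the Benjamini-Hochberg method over all tested genes within each comparison, with a threshold of 0.05. An adjusted p comes from this test unless another is named. Group values are mean ± SD of 3 libraries. The test was run on simulated counts before the deposited counts. Precision from counts covers counting error only.

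Alternatives were DESeq2 1.42.0, limma-voom (limma 3.58.1) with sample weights, other scalings and filters, fits to just 6 libraries, a block for replicate number, omission of single libraries, and a spline correction for length and GC. Length alone, GC alone and other gene lengths were added after seeing the data.

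All collagens could be named, and of the other lists up to 4 genes with the smallest p. The collagens and lists were chosen with earlier results of these data known. Levels between genes were compared per kilobase of the longest coding transcript.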

Additional observations from a re-analysis of the deposited data

Results flagged for a closer look

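Col5a3 differed between the irradiated groups in the test of day 14 against day 7 itself, by 0.8982 on the log2 scale (SE 0.18, adjusted p = 0.00679 by edgeR's quasi-likelihood test). Its 3 day 7 libraries (5.76 to 9.13 CPM) were below the 3 day 14 libraries (12.5 to 15.9 CPM), and no other of the 34 tested collagens passed that test. After the length and GC correction the difference was 0.98 (adjusted p = 0.00164), and leaving out each library gave adjusted p-values from 0.00427 to 0.0447.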

How the results depend on the processing

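The 12 higher and 1 lower collagens at day 7 were counted the same with DESeq2's size factors, without the 20 most abundant genes in the scaling, with a minimum of 1 CPM in 3 libraries, with only the 6 libraries compared and with DESeq2. The count of higher collagens was 7 with the length and GC correction, 4 with length alone and 4 with the longest coding transcript as the length. Leaving out 1 library gave 7 to 12 higher and 1 lower in each case. At day 14 against control, where 1 was higher and 0 lower, the higher count was 7 with no filter on low counts, 4 with DESeq2, 2 with limma-voom, 0 with length alone, 4 with GC alone and 0 (without control library 1) to 4 (without control library 3) with 1 library left out. The lower count there was 1 with no filter and 1 with DESeq2. At day 14 against day 7, where 0 were lower, the count was 1 with no filter, 1 with DESeq2, 1 with limma-voom, 1 with GC alone, 2 with the 6 libraries compared and 0 to 2 with 1 library left out. Shares over all genes were not counted for the other scalings and filters, the 6-library, block and leave-one-out fits, or the coding transcript length. Nor were they counted for length or GC alone in the day 14 comparisons. Collagen counts from those fits therefore stand without a background. The cause of the differences between settings was not tested.

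Replicate numbers are shared between groups, and the labels do not say whether they pair the samples. Deviations of same-numbered libraries had correlations from −0.112 to 0.0367, beside −0.0900 to 0.158 for differently numbered ones. With 3 libraries a group these values cannot settle whether a number marks a shared batch. With the replicate number as a block 11 collagens were higher at day 7, Col3a1 being lost (adjusted p = 0.0564), and 7 with the block and the length and GC correction, and the other counts were as without the block. Chain ratios changed sign where 1 library was left out, as log2 differences of day 7 minus control: Col1a1 over Col1a2 ran from −0.0724 to 0.164, Col3a1 over Col1a1 from −0.335 to 0.0237 and Col6a1 over Col6a2 from −0.104 to 0.0688. Depth limits the low genes, since 3 counts were worth 0.159 to 0.202 CPM.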
